A study of Ovis aries with 36 samples.

Results

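The comparison described here asks whether fetal subcutaneous and perirenal fat differed in their change between 2 maternal diets, and which genes differed in opposite directions in the 2 depots. It uses 16 of the 36 RNA-seq libraries of the study, namely every library of the 2 adipose depots whose label gives dried corn distillers grains (DG) or hay, called haylage (HY) below, as maternal diet. Each depot and diet had 4 libraries. The ewes were Polypay sheep bred to a single sire and fed their diet individually through mid and late gestation, with DG limit-fed and HY, an alfalfa haylage, fed ad libitum. Fetuses were collected late in gestation, and each library was made from RNA pooled from fetuses of 1 sex, so that replicates F1 and F2 were female and M1 and M2 male. The same pool codes occur in both depots, and the 8 pools therefore gave 8 pairs of a subcutaneous and a perirenal library. There were fewer dams than fetuses, and by the study's list of pools every pool shared a dam with another pool of its diet. The pools are thus not independent. The p-values below, permutations included, measure the spread between pools and treat them as if they were. No unfed or reference group enters this contrast, so "higher on HY" and "lower on DG" are the same statement.

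Fetal lambs lay down fat in distinct depots. The perirenal depot around the kidney is rich in thermogenic adipocytes before birth, which burn lipid through uncoupling protein 1 and keep the newborn warm. Subcutaneous fat is scarce in the late sheep fetus and lies against the muscles of the body wall. Adipocytes of either kind are made from fibroblast-like progenitors embedded in extracellular matrix, and they mature as the C/EBP and PPAR transcription factors switch on lipid uptake, triglyceride synthesis and lipid droplet genes.

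Total counts per library ranged from 9416187 to 20272024 in subcutaneous and from 7802700 to 15913813 in perirenal tissue. Of these counts, 4.64% to 8.50% lay at loci with no gene name in subcutaneous DG pools, against 5.44% to 13.1% in subcutaneous HY pools and 7.64% to 13.3% in perirenal pools. PLIN1, the coat protein of the lipid droplet, had 9.75 ± 4.95 CPM (counts scaled to the size of the library, by TMM; mean ± SD, n = 4 in this and later group means) in subcutaneous DG and 24.04 ± 14.3 in subcutaneous HY, against 629 ± 246 in perirenal DG and 694 ± 191 in perirenal HY. The subcutaneous libraries also held skeletal muscle RNA in very unequal amounts. The mean of 31 skeletal muscle markers lay at 11.1, 10.2, 4.60 and 10.4 log2 CPM in subcutaneous DG pools F1, F2, M1 and M2, and at 4.50, 10.7, 5.74 and 8.51 in the HY pools in the same order. In the 8 perirenal libraries it lay between 0.44 and 2.76. Low and high muscle pools thus occurred on both diets, and the depot difference of the muscle level did not separate the diets (exact two-sided permutation over the 8 pools, p = 0.543). In bulk RNA, fewer cells of a type and less RNA per cell cannot be told apart.

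For every gene the HY minus DG change was estimated in each depot, and the depot difference of that change, subcutaneous minus perirenal on the log2 scale, was tested with the pool as a block in 12780 genes. A positive value means that HY went with relatively more RNA in subcutaneous than in perirenal fat. At FDR ≤0.05 no gene passed (0% of genes tested; quasi-likelihood F test of edgeR, Benjamini-Hochberg FDR), and at FDR ≤0.20 a single gene, PRKCDBP, passed (0.00782% of genes tested). At an unadjusted p of at most 0.05 there were 1189 positive genes (9.3%) and 948 negative genes (7.42%), 2137 in all, and 2017 of them had opposite signs in the 2 depots. Signs were opposite in 7322 of all 12780 genes, or 57.3%, so opposite signs alone are common. DESeq2's Wald test of the same design called 197 genes at FDR ≤0.05 and edgeR's likelihood-ratio test called 190. Leaving out pool DG F1 gave 128 calls at FDR ≤0.05 and leaving out pool HY F2 gave 8, whereas leaving out any of the other 6 pools gave 0 calls.

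Without the pool block, 48 positive genes (0.376%) and 6 negative genes (0.0469%) passed FDR ≤0.05, and 1240 positive (9.7%) and 1116 negative genes (8.73%) passed FDR ≤0.20. All 54 genes at FDR ≤0.05 had opposite signs in the 2 depots, all had an unadjusted p of at most 0.05 with the block, and none was enriched in muscle, defined as a CPM at least 10 times higher in muscle than in perirenal libraries of the third diet, corn (CN). The block costs residual degrees of freedom, of which 6 remain against 12 without it. Since the block changes the calls, genes are described below by their values in each library. The adjusted p without the block is given beside only some of them. Among the 16 leading genes it was 0.048 for PRKCDBP, SPTBN5, COL18A1, RAC3, MST1, NMNAT1, DUSP16, SOCS2 and CIAO1. For the other leading genes it was above 0.05, from 0.055 (CCDC43) to 0.071 (ARPC1B). It was also above 0.05 for others described, such as FBLN2 (0.063), UCP1 (0.122) and CEBPA (0.144).

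**Figure D1:**
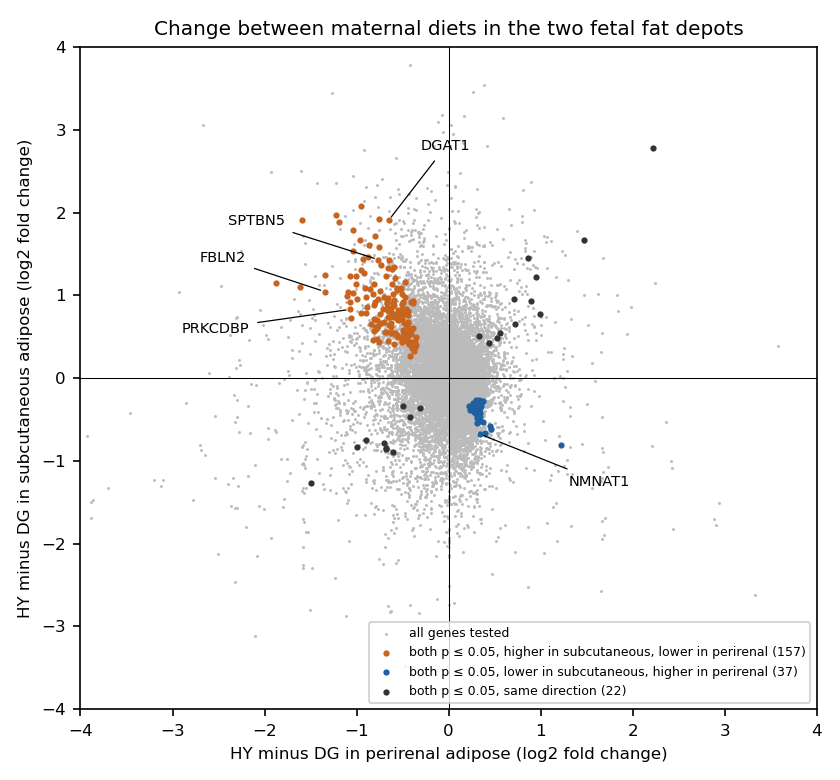
Each point is 1 of the 12780 genes tested, with the HY minus DG log2 fold change in perirenal fat on the horizontal axis and in subcutaneous fat on the vertical axis, from the fit without the block. Colored points had an unadjusted p of at most 0.05 in both depots, and 157 of them lie at the upper left, 37 at the lower right and 22 in the quadrants of equal sign. Axes end at 4 log2 units, which leaves out 4 genes.

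PRKCDBP, which encodes a coat protein of caveolae, the small membrane pits abundant in adipocytes, had the lowest p of all genes that have a symbol and enough counts to be named. Its locus lies at chr15:46117039-46119052 of Oar_v3.1. In subcutaneous fat it had 23.8, 25.6, 46.5 and 23.3 CPM in DG pools F1, F2, M1 and M2, and 61.4, 35.5, 57.8 and 56.9 CPM in the HY pools. In perirenal fat it had 19.6, 23.99, 33.4 and 27.0 CPM in the DG pools and 13.9, 8.79, 10.8 and 16.2 CPM in the HY pools. The perirenal diets did not overlap, and in subcutaneous fat 1 DG pool, M1, lay among the HY pools. The HY minus DG change was 0.83 in subcutaneous and -1.07 in perirenal fat, and the difference between depots was 1.94 (SE 0.25), with an adjusted p of 0.115 with the block and 0.048 without it. In the 8 pools, the subcutaneous minus perirenal difference was higher in all 4 HY pools than in all 4 DG pools (exact two-sided permutation p = 0.0286, the smallest that 8 pools allow). Such separation was found in 448 genes in this direction (3.51% of genes tested) and in 598 in the other (4.68%), so it is no rarity in these data, and the leading genes were chosen by their p.

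The other leading positive genes were SPTBN5, COL18A1, RAC3, ITGB4, RAB3IL1, ARPC1B and MST1. ITGB4, the beta 4 integrin that binds laminin in basement membranes, had 29.0, 20.1, 45.5 and 14.7 CPM in subcutaneous DG pools against 36.0, 47.1, 37.0 and 59.8 in HY pools. In perirenal fat it had 51.6, 55.3, 50.6 and 26.3 CPM in DG pools against 15.4, 18.3, 30.7 and 23.4 in HY pools. The diets overlapped in each depot by 1 pool, yet the depot difference turned round, from lower in subcutaneous fat in 4 of 4 DG pools to higher in 4 of 4 HY pools. COL18A1, a collagen of basement membranes, had 32.5, 21.9, 32.4 and 23.3 CPM in subcutaneous DG pools and 87.8, 49.9, 63.5 and 79.0 in HY pools. In the perirenal depot it had 81.2, 98.4, 98.5 and 90.9 CPM in DG pools and 53.2, 61.7, 77.1 and 84.5 in HY pools, with 1 HY pool, M2, above 1 DG pool. Its depots thus stood about 1.77 log2 units closer together on HY than on DG (SE 0.30, unadjusted p = 1.08e-04, adjusted p without the block 0.048).

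RAC3, a small GTPase, separated the diets completely and oppositely in both depots. It had 15.9, 10.6, 8.83 and 8.52 CPM in subcutaneous DG pools against 27.1, 17.7, 21.3 and 33.0 in HY pools, and 38.6, 42.8, 34.2 and 32.2 CPM in perirenal DG pools against 25.9, 24.6, 32.0 and 26.6 in HY pools. The margin in perirenal fat was small, with the highest HY pool just under the lowest DG pool. Its region in the files is also that of an overlapping locus, as are those of RAB3IL1, MST1, NMNAT1, DUSP16 and CIAO1 among the leading genes, so reads there may belong in part to a neighbour. The same limit holds for SREBF1, SLC27A4, GPIHBP1, UCP1, PANK1, CFD, NCOA1, ELN, ITGA7, TGFB2, LRP6, TSC2, PLAGL1, ARNTL, PC, RPL13, PLK1, EGFL7, NOS3 and AMOT below. SPTBN5, a beta spectrin of the membrane skeleton, had 4.53 ± 1.45 CPM in subcutaneous DG and 12.2 ± 3.26 in subcutaneous HY, against 3.91 ± 0.36 and 2.295 ± 0.96 in perirenal fat. ARPC1B, a subunit of the Arp2/3 complex that nucleates branched actin, had 20.2 ± 6.04 and 38.4 ± 6.95 CPM in subcutaneous DG and HY and 50.6 ± 14.2 and 38.0 ± 9.68 in perirenal DG and HY. MST1, the ligand of the receptor RON, had 14.9 ± 2.58 CPM on DG and 37.3 ± 7.27 on HY in subcutaneous fat, and 113 ± 36.9 and 71.2 ± 19.9 in perirenal fat.

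The leading negative genes were NMNAT1, DUSP16, RNF144B, CCDC117, USP47, CCDC43, SOCS2 and CIAO1. Their subcutaneous levels were lower on HY, and their perirenal levels were higher by a smaller amount. NMNAT1, which makes NAD in the nucleus, was the clearest case of opposite differences. It had 46.1, 56.3, 40.4 and 46.1 CPM in subcutaneous DG pools against 31.1, 31.6, 24.2 and 31.3 in HY pools, and 34.9, 31.4, 33.0 and 36.1 CPM in perirenal DG pools against 46.1, 42.4, 38.2 and 44.7 in HY pools. No library of a diet overlapped with the other diet in either depot, and the depot with the higher level switched from subcutaneous on DG to perirenal on HY. The difference between depots was -1.01 (SE 0.21, unadjusted p = 6.48e-04, adjusted p 0.224 with and 0.048 without the block).

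DUSP16, a phosphatase that inactivates the stress kinase JNK, had 36.5, 54.9, 22.4 and 35.4 CPM in subcutaneous DG pools and 6.43, 16.02, 7.24 and 13.6 in HY pools. In perirenal fat it had 24.3, 21.3, 26.3 and 25.4 CPM in DG pools and 26.1, 29.0, 33.6 and 23.0 in HY pools, which overlapped. Nearly all of its depot difference of -2.00 (SE 0.44) therefore came from subcutaneous fat. SOCS2, which damps growth hormone signaling, had 10.3, 14.7, 11.5 and 12.9 CPM in subcutaneous DG pools against 5.82, 7.97, 6.86 and 7.72 in HY pools. In perirenal fat, where its CPM was far higher, it had 60.8, 56.9, 56.2 and 70.4 CPM in DG pools and 67.0 to 80.5 CPM in 3 HY pools, with HY M1 at 64.5. SOCS2, CIAO1, DUSP16 and USP47 each sum 2 loci in the subcutaneous assembly but 1 in the perirenal assembly. Their levels in the 2 depots may therefore be counted over different regions. The same limit holds for CAB39, PRKAA1, TGFBR1 and SUCLA2 below, and for NOS3 with the depots exchanged. CIAO1, which helps insert iron-sulfur clusters into cytosolic proteins, had 7.54 ± 1.19 and 3.83 ± 0.74 CPM in subcutaneous DG and HY, and 70.02 ± 4.83 and 76.4 ± 5.40 in perirenal DG and HY. For USP47, a deubiquitinating enzyme, the corresponding values were 203 ± 64.0 and 88.8 ± 24.95 CPM in subcutaneous fat and 153 ± 4.83 and 172 ± 21.4 in perirenal fat. RNF144B, a ubiquitin ligase, had 126 ± 53.8 and 45.6 ± 16.4 CPM in subcutaneous fat against 17.1 ± 2.11 and 18.5 ± 3.71 in perirenal fat.

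**Figure D2:**
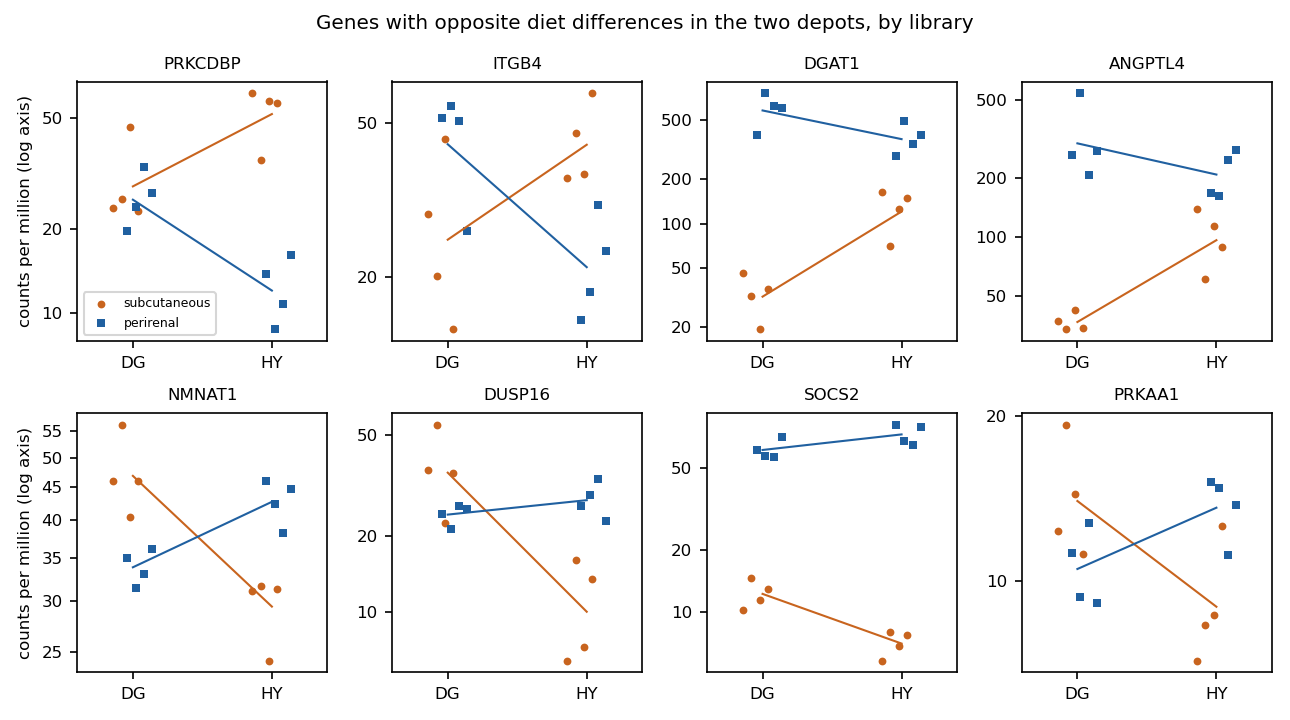
CPM (log axis) of 8 genes in each of the 16 libraries, by maternal diet, with circles for subcutaneous and squares for perirenal libraries and lines joining the geometric means of the 4 libraries of a group. The lines cross for ITGB4, NMNAT1, DUSP16 and PRKAA1, part from a similar level for PRKCDBP, and for DGAT1, ANGPTL4 and SOCS2 lie apart on both diets with a narrower or wider gap on HY.

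Since muscle RNA varied so widely among the subcutaneous pools, the comparison was repeated within the 5 pools whose subcutaneous muscle level was at least 8 log2 CPM (DG F1, F2 and M2 and HY F2 and M2) and within the other 3 (DG M1 and HY F1 and M1). The second class has a single DG pool, and the leading genes were chosen on all 8 pools, which favors equal signs in parts of them, so the values are given as a description. All 16 leading genes had the same sign in both classes. For PRKCDBP the depot difference was 1.90 in the muscle-rich and 1.83 in the muscle-poor pools, and for NMNAT1 it was -0.95 and -0.88. ITGB4 was the leading gene with the most unequal values, 2.45 and 0.92. With the mean muscle marker level as a covariate beside the block, 1158 genes passed FDR ≤0.20, and with muscle-enriched genes removed 568 did, in each case with 0 genes at FDR ≤0.05. The muscle markers themselves had a median depot difference of -2.48, with 1 of 31 at an unadjusted p of at most 0.05. That gene was MYOG, a muscle differentiation factor, which had 0 counts in 7 of the 8 perirenal libraries, so no fold is given.

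**Figure D3:**
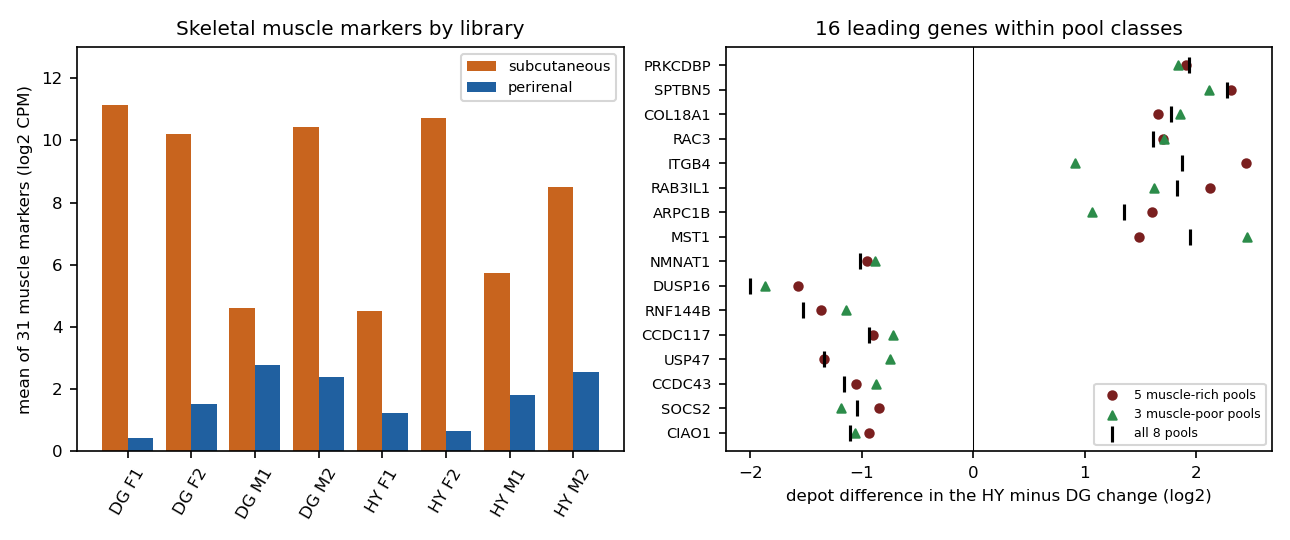
Left, the mean level of 31 skeletal muscle markers (log2 CPM) in the subcutaneous and perirenal library of each pool. Right, the depot difference in the HY minus DG change (log2) of the 16 leading genes from all 8 pools (bars), from the 5 muscle-rich pools (circles) and from the 3 muscle-poor pools (triangles), which lie on the same side of 0 for every gene shown.

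In the lists that follow, counts of genes at an unadjusted p of at most 0.05 are to be read against 9.3% positive and 7.42% negative among all genes tested. Counts by sign alone are to be read against 6141 positive and 6639 negative among all 12780 genes. Of 17 lipid droplet proteins and lipases tested, 16 had a positive depot difference, with a median of 0.61 beside -0.03 over all genes, and 4 positive genes (23.5%) and no negative gene had an unadjusted p of at most 0.05. The median HY minus DG change of this list was 0.78 in subcutaneous and -0.01 in perirenal fat, so the depot difference of this list lay almost wholly in the subcutaneous depot. DGAT1, which catalyzes the last step of triglyceride synthesis, led it (chr9:13566141-13576105 of Oar_v3.1). In subcutaneous fat it had 46.6, 32.6, 19.4 and 36.2 CPM in DG pools and 163, 70.3, 125 and 148 in HY pools. In perirenal fat it had 398, 758, 624 and 604 CPM in DG pools and 285, 492, 345 and 396 in HY pools. The subcutaneous diets did not overlap and the perirenal diets overlapped only through DG F1 at 398 and HY F2 at 492. The depot difference was 2.56 (SE 0.50), with an adjusted p of 0.224 with the block and 0.048 without it. Perirenal fat had the higher level on both diets, by a smaller margin on HY.

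CIDEA, a lipid droplet protein typical of brown fat, had 16.3, 14.6, 24.2 and 24.01 CPM in subcutaneous DG pools and 109, 39.8, 53.7 and 54.9 in HY pools. Its perirenal levels of 148, 241, 148 and 157 CPM on DG and 98.4, 133, 168 and 154 on HY overlapped, and the depot difference was 1.93 (SE 0.46, unadjusted p = 0.00168). PNPLA2, the first lipase of triglyceride breakdown, and PLIN3, another droplet coat protein, had depot differences of 1.07 (SE 0.39) and 0.86 (SE 0.36). Without 1 pool, their unadjusted p reached 0.067 and 0.082 at most.

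Of 18 genes of fatty acid uptake and binding, 5 were positive (27.8%) and 1 negative at an unadjusted p of at most 0.05, with a median of 0.25. ANGPTL4, a secreted inhibitor of lipoprotein lipase, had 37.0, 33.8, 42.5 and 34.3 CPM in subcutaneous DG pools against 139.8, 61.0, 113 and 89.1 in HY pools. Its perirenal levels were 264, 543, 208 and 276 CPM on DG and 168, 163, 249 and 279.9 on HY. Every subcutaneous HY pool exceeded every DG pool, the perirenal diets overlapped, and the depot difference was 1.91 (SE 0.41, unadjusted p = 7.30e-04, adjusted p without the block 0.048). The fatty acid transporters SLC27A3 and SLC27A4 had depot differences of 1.83 (SE 0.48) and 1.70 (SE 0.47). SLC27A4 had 3.66 ± 1.48 and 7.24 ± 1.57 CPM in subcutaneous DG and HY, and 13.5 ± 3.46 and 8.27 ± 0.80 in perirenal DG and HY. GPIHBP1, which holds lipoprotein lipase on the capillary wall, had 1.23 (SE 0.47).

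Of 17 fatty acid synthesis genes, 2 were positive and none negative at an unadjusted p of at most 0.05, with a median of 0.23, and the list median was higher on HY in both depots (0.66 subcutaneous, 0.21 perirenal). Its median depot difference was 0.53 in the muscle-rich but -0.51 in the muscle-poor pools, which hold a single DG pool. In the same order it was 0.63 and -0.03 for fatty acid uptake, and 0.40 and -0.58 for cholesterol synthesis. It was 0.22 and -0.27 for fatty acid oxidation, 0.83 and 0.12 for white adipocyte genes, and 0.64 and 0.43 for lipid droplet genes. FASN, the fatty acid synthase, had 30.0 ± 10.5 and 70.9 ± 18.3 CPM in subcutaneous DG and HY and 295 ± 88.5 and 296 ± 115 in perirenal DG and HY, so its depot difference of 1.28 (SE 0.35) was that of 1 depot. SREBF1, the transcription factor that activates this pathway, had 1.03 (SE 0.36). In cholesterol synthesis and uptake, none of 22 genes had opposite signs in the 2 depots, 11 depot differences were positive and 11 negative, and 2 positive and 1 negative gene had an unadjusted p of at most 0.05. Of 22 fatty acid oxidation genes, 3 were positive and 1 negative at an unadjusted p of at most 0.05, and by sign alone 12 were positive and 10 negative. ACAA1, a peroxisomal thiolase, had 18.9 ± 6.35 and 33.8 ± 10.8 CPM in subcutaneous DG and HY and 50.4 ± 6.98 and 35.6 ± 5.90 in perirenal DG and HY, and was 1 of the few lipid genes with an unadjusted p of at most 0.05 in each depot (0.00268 and 0.0459).

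Of 17 brown adipocyte genes, 14 were positive (median 0.46), 3 positive and 1 negative with an unadjusted p of at most 0.05. UCP1, the uncoupling protein itself, had 12.9, 37.2, 67.3 and 57.5 CPM in subcutaneous DG pools and 79.4, 101, 97.8 and 74.5 in HY pools, and 790.3, 1243, 503 and 785 CPM in perirenal DG pools and 679.5, 714, 450.0 and 499 in HY pools. All subcutaneous HY pools lay above all DG pools, while the perirenal diets overlapped, and the depot difference was 1.70 (SE 0.59, unadjusted p = 0.0151). It was 2.18 in the muscle-rich but 0.28 in the muscle-poor pools, where the single DG pool, M1, had the highest subcutaneous level on that diet. ADRB3, the adrenergic receptor that starts lipolysis and thermogenesis, had 3.53, 5.11, 5.69 and 3.85 CPM in subcutaneous DG pools and 24.3, 7.48, 10.1 and 13.2 in HY pools. In the perirenal depot its 33.3 to 57.3 CPM on DG and 30.3 to 40.1 CPM on HY overlapped. PANK1, the first enzyme of coenzyme A synthesis, was the negative gene of the list at -0.67 (SE 0.26). The summed level of the brown genes ran from 619.6 to 704 CPM in subcutaneous DG and from 707 to 1042 in subcutaneous HY libraries, against 1511 to 2648 and 1636 to 1858 in perirenal DG and HY.

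Of 15 white adipocyte genes and adipokines, 13 were positive (median 0.77), and 3 had an unadjusted p of at most 0.05: RARRES2, which encodes chemerin, at 0.98 (SE 0.32), APOE, an apolipoprotein, at 0.98 (SE 0.42), and CFD, which encodes adipsin. CFD rests on very few reads, with 0 counts in 2 of the 4 subcutaneous DG pools and at most 1.37 CPM in any library, so no fold is given. PLIN1, in the same list, had 1.11 (SE 0.52) and an unadjusted p of 0.0555.

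Of 21 adipogenic transcription regulators, 5 were positive and 2 negative at an unadjusted p of at most 0.05, with a median of 0.49. CEBPA, a master regulator of terminal adipocyte differentiation, had 1.73, 0.324, 0.116 and 0.082 CPM in subcutaneous DG pools and 2.31, 1.48, 2.097 and 4.97 in HY pools. In perirenal fat it was at 350.5, 399, 174 and 226 CPM on DG and at 276, 187, 412 and 299 on HY. The subcutaneous diets did not overlap, but the gene was scarcely detected there, and its depot difference of 2.42 (SE 0.67) compares a few reads per library with an abundant perirenal transcript. CEBPB, an early regulator, had 0 counts in 2 subcutaneous DG pools and at most 1.11 CPM in that depot, against 2.16 to 7.86 CPM in perirenal DG and 0.499 to 2.40 in perirenal HY pools. STAT5A, which carries growth hormone and prolactin signals, had 1.01 (SE 0.33). On the negative side, ARID5B, a chromatin-binding regulator needed for adipogenesis, had 141, 144, 86.6 and 92.2 CPM in subcutaneous DG pools and 34.6, 57.6, 46.2 and 62.3 in HY pools, while perirenal levels of 25.8 to 46.5 on DG and 28.0 to 33.5 on HY overlapped. Its HY minus DG values had the same sign in both depots (-1.21 and -0.26) and differed in size. NCOA1, a coactivator of nuclear receptors, was alike in this (-0.72 and -0.08).

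Of 45 collagen and matrix genes, 9 were positive (20%) and none negative at an unadjusted p of at most 0.05, with a median of 0.43. The list median was -0.14 in subcutaneous and -0.42 in perirenal fat, a difference between depots that was not tested for the list. COL18A1, described above, led the list and had its larger change in subcutaneous fat (1.35 against -0.42), while the next genes had theirs in perirenal fat or in both depots. FBLN2, which links elastic fibers and basement membranes, had 8.79, 2.76, 3.37 and 3.36 CPM in subcutaneous DG pools and 5.34, 8.71, 7.82 and 15.9 in HY pools. In perirenal fat it had 19.4, 39.8, 23.9 and 15.2 CPM on DG and 6.74, 6.09, 13.1 and 12.6 on HY. The perirenal diets did not overlap, and the depot difference was 2.41 (SE 0.56). LTBP4, which tethers latent TGF-beta to elastic fibers, had 43.0, 29.3, 23.7 and 28.8 CPM on DG and 38.3, 45.8, 48.4 and 65.3 on HY in subcutaneous fat, and 92.9, 119.9, 98.8 and 91.2 on DG and 81.1, 41.9, 63.9 and 73.7 on HY in perirenal fat. Again every perirenal HY pool lay below every DG pool. ELN, which encodes elastin and was muscle-enriched, ranged from 22.3 to 197 CPM in perirenal DG and from 6.69 to 46.8 in perirenal HY pools. Its depot difference of 2.60 (SE 0.77) carries the largest error of the 3. The matrix list had a median of 0.85 in the muscle-rich pools, with 15 positive genes, but of -0.39 in the 3 muscle-poor pools.

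Among 26 TGF-beta and integrin genes, 3 were positive and 3 negative (11.5% each) at an unadjusted p of at most 0.05 (median 0.43). The ligand TGFB2 and the receptor TGFBR1 were negative at -1.36 (SE 0.47) and -0.74 (SE 0.26), whereas ITGA7, a laminin receptor subunit prominent in muscle, was positive at 1.43 (SE 0.41) with ITGB4. Of 28 Wnt pathway genes (median 0.13), 3 were positive (10.7%) and 1 negative (3.57%) at an unadjusted p of at most 0.05. These shares were near and below those of all genes. In muscle-rich and muscle-poor pools the median was 0.56 and -0.08 for the Wnt list. It was 0.46 and -0.12 for the TGF-beta and integrin list. The muscle-poor pools hold a single DG pool. The ligand WNT11 had 20.7 ± 4.40 and 46.7 ± 12.95 CPM in subcutaneous DG and HY and 87.6 ± 14.7 and 81.1 ± 21.5 in perirenal DG and HY. The receptor FZD1 and the nuclear cofactor BCL9L were positive at 0.95 (SE 0.31) and 1.15 (SE 0.47), and the coreceptor LRP6 was negative at -0.83 (SE 0.29). For BCL9L the subcutaneous change was 0.14 and the perirenal change -1.01. Of 22 HOX genes, which record position along the body axis, 18 were positive (median 0.49). At an unadjusted p of at most 0.05 there were 2 positive genes (9.09%) and 1 negative gene (4.55%). These shares were near and below those of all genes. HOXB2 separated the diets completely in both depots, with 2.78 ± 0.39 and 3.84 ± 0.30 CPM in subcutaneous DG and HY and 4.67 ± 0.76 and 3.28 ± 0.54 in perirenal DG and HY.

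Of 25 genes of insulin and insulin-like growth factor signaling (median 0.00057), 2 were positive (8%) and 1 negative (4%) at an unadjusted p of at most 0.05. Both shares lay below those of all genes. IGFBP2, which binds insulin-like growth factors, had 9.97, 7.95, 9.99 and 6.64 CPM in subcutaneous DG pools and 15.3, 11.3, 14.1 and 19.98 in HY pools, and 19.97, 30.5, 33.9 and 30.5 CPM in perirenal DG pools and 17.0, 22.9, 20.6 and 19.9 in HY pools. TSC2, a brake on mTOR, was positive at 1.26 (SE 0.37), and PLAGL1, an imprinted zinc finger gene, was negative at -0.94 (SE 0.35). The AMP-activated kinase list, the cell's gauge of low energy, had 3 negative genes of 12 (25%) and no positive gene at an unadjusted p of at most 0.05. By sign alone, 6 were positive and 6 negative. PRKAA1, a catalytic subunit, had 12.3, 19.3, 14.4 and 11.2 CPM in subcutaneous DG pools and 7.16, 8.30, 8.67 and 12.6 in HY pools, and 11.3, 9.35, 12.8 and 9.12 CPM in perirenal DG pools and 15.2, 14.8, 11.2 and 13.8 in HY pools. The diets overlapped slightly in each depot, and the depot difference was -1.004 (SE 0.33). PRKAB2, a regulatory subunit, had -1.29 (SE 0.41) and CAB39, a partner of the upstream kinase LKB1, had -1.10 (SE 0.33). Of 19 genes of the response to amino acid shortage (median -0.07), 2 were positive at an unadjusted p of at most 0.05 (10.5%, near the 9.3% of all genes). The 2 were SESN2 at 1.19 (SE 0.38) and NUPR1 at 1.41 (SE 0.51).

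Of 50 respiratory chain and ATP synthase subunits, 5 were positive (10%, near the 9.3% of all genes) and none negative at an unadjusted p of at most 0.05. The list median was -0.10. NDUFV1 and NDUFS8 of complex I, CYC1 of complex III and ATP5D of the ATP synthase had depot differences of 1.47 (SE 0.48), 1.14 (SE 0.40), 1.01 (SE 0.37) and 1.33 (SE 0.51). Of 22 citrate cycle genes (median -0.11), 1 was positive (4.55%) and 2 negative (9.09%) at an unadjusted p of at most 0.05. The corresponding shares of all genes were 9.3% and 7.42%. The positive gene was PC, the pyruvate carboxylase that refills the cycle, at 1.64 (SE 0.43). The negative genes were SUCLG2 and SUCLA2, subunits of succinyl-CoA synthetase, at -0.98 (SE 0.34) and -0.74 (SE 0.30). Of 33 cytosolic ribosomal protein genes (median 0.10), 3 were positive at an unadjusted p of at most 0.05 (9.09%, near the share of all genes). Among them were RPL13 and RPL28 at 1.45 (SE 0.43) and 1.25 (SE 0.37). RPL13 had 67.1 ± 36.6 and 111 ± 32.9 CPM in subcutaneous DG and HY, and 216 ± 20.1 and 141 ± 35.3 in perirenal DG and HY. Of 27 proteasome subunits, 22 were negative (median -0.34) and 4 negative and no positive gene had an unadjusted p of at most 0.05. PSMA4, a subunit of the core ring, had 129, 114, 143 and 112 CPM in subcutaneous DG pools and 126, 102, 109 and 103 in HY pools, against 104, 81.5, 90.6 and 96.6 CPM in perirenal DG pools and 129.8, 113, 125 and 107 in HY pools. Its perirenal diets did not overlap, and its depot difference was -0.53 (SE 0.20).

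By sign alone, the circadian clock list had 10 negative and 4 positive genes of 14 (median -0.44). At an unadjusted p of at most 0.05 there were 2 negative genes and no positive gene. They were the repressor NR1D2, which was muscle-enriched, at -1.17 (SE 0.48) and the activator ARNTL at -0.80 (SE 0.35). Their HY minus DG values had the same sign in subcutaneous and perirenal fat, -1.66 and -0.32 for NR1D2 and -0.88 and -0.06 for ARNTL. With the muscle level as a covariate the depot differences were -1.09 (unadjusted p = 0.0512) and -0.77 (unadjusted p = 0.0527). Of 45 chromatin regulators, 2 were positive (4.44%) and 5 negative (11.1%) at an unadjusted p of at most 0.05 (median -0.02). SATB1, which organizes chromatin loops, was negative at -2.01 (SE 0.66), and EHMT2, a histone methyltransferase, was positive at 0.53 (SE 0.20). Of 29 cell division genes (median -0.11), 14 were positive and 15 negative by sign alone. At an unadjusted p of at most 0.05, 2 were positive (6.9%, below the 9.3% of all genes) and none negative. The 2 were PLK1 at 0.88 (SE 0.32) and MCM4 at 0.49 (SE 0.21).

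Markers of other cell types were tested in the same fit. Of 17 macrophage and lymphocyte markers, 12 were positive (median 0.64), 3 of them with an unadjusted p of at most 0.05, including the B cell gene CD79A at 1.82 (SE 0.71), which rests on few reads (0.0785 to 0.465 CPM in subcutaneous DG pools), while MRC1, a macrophage receptor, was negative at -1.43 (SE 0.63). Of 15 endothelial markers (median 0.53), 2 were positive at an unadjusted p of at most 0.05, EGFL7 at 1.67 (SE 0.46) and NOS3 at 1.36 (SE 0.52). The mean level of the endothelial list ranged from 6.32 to 7.06 log2 CPM in subcutaneous DG and from 6.30 to 7.73 in subcutaneous HY libraries, and from 7.39 to 7.96 and 7.50 to 7.98 in perirenal DG and HY. At an unadjusted p of at most 0.05, 1 of 11 smooth muscle and pericyte markers was positive and 1 negative (median 0.30). Positive at that p were also 2 of 6 erythroid markers, HBM and ALAS2 (median 0.43), and 1 of 4 epidermis markers (median 0.20). All 3 kidney and adrenal markers tested had a positive difference, none with an unadjusted p of at most 0.05. Of 10 Schwann and nerve markers 1 was positive at an unadjusted p of at most 0.05, CDH19 at 1.35 (SE 0.53). Signs were opposite in the 2 depots for 9 of the 10, and the list median was 0.92, the highest of the cell type lists. Subcutaneous HY pool F2 had a summed level of these nerve markers of 9775 CPM, against 210 to 521 in the other 3 HY pools and 493 to 1092 in the DG pools, and the list median was 2.66 in the muscle-rich pools, which include it, and -1.51 in the muscle-poor pools. The mean level of the 6 erythroid markers ranged from 1.19 to 1.69 log2 CPM in subcutaneous DG and from 1.86 to 3.25 in subcutaneous HY libraries, without overlap, and from 2.83 to 4.29 over the 8 perirenal libraries. Its depot difference averaged -1.73 in DG and -0.99 in HY pools and separated the diets (exact two-sided permutation over the 8 pools, p = 0.0286, the smallest possible). That of the brown adipocyte genes averaged -0.88 and -0.36, with the same permutation p of 0.0286. For the other 7 cell type lists this p was 0.0857 (macrophages and lymphocytes), 0.343 (kidney and adrenal), 0.514 (endothelium), 0.543 (skeletal muscle), 0.629 (Schwann cells and nerve), 0.714 (epidermis) and 0.771 (smooth muscle and pericytes). No p was adjusted for the number of lists. The part of these cell types in the results above was not tested.

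**Figure D4:**
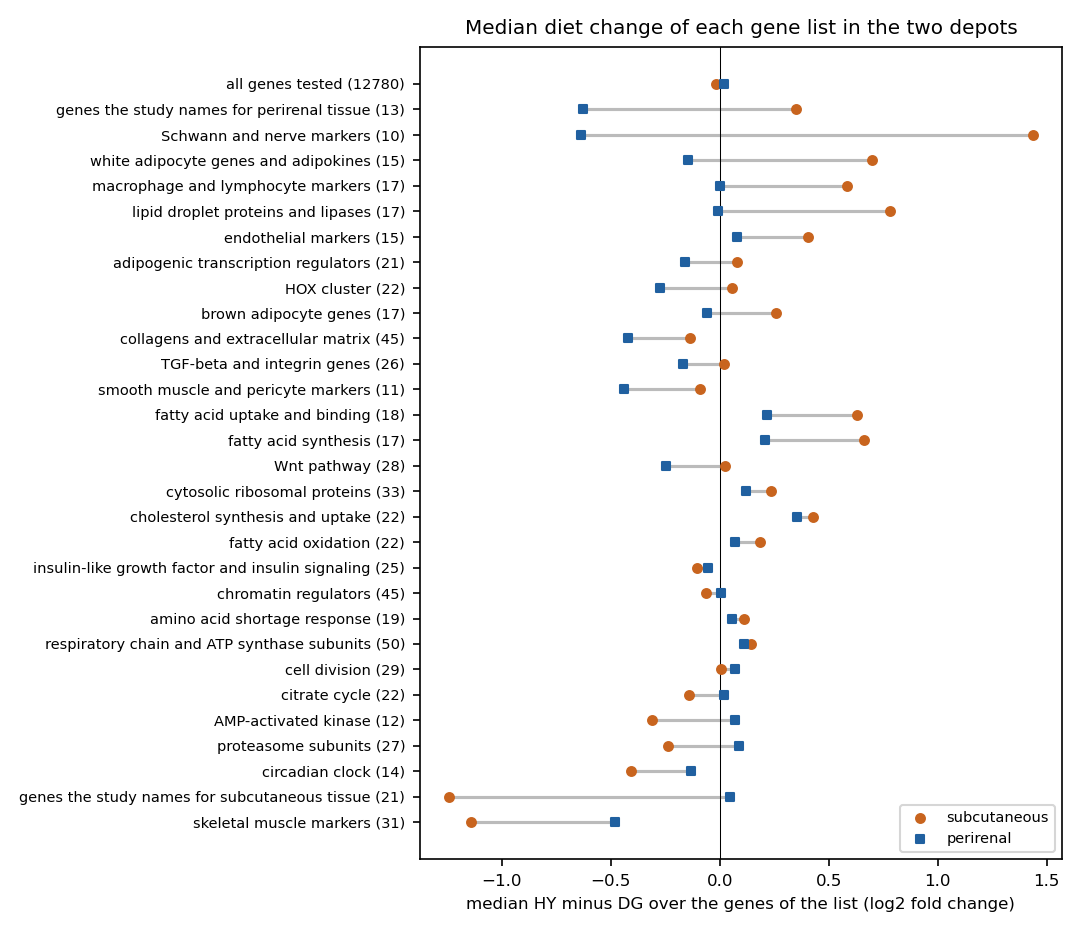
Median HY minus DG log2 fold change of each gene list with at least 10 genes tested (number in parentheses), in subcutaneous (circles) and perirenal fat (squares), ordered by the median depot difference, with all genes tested at the top. Lipid droplet, white adipocyte and endothelial genes lie to the right in subcutaneous fat and near 0 in perirenal fat, matrix genes lie to the left in perirenal fat, and proteasome subunits lie to the left in subcutaneous fat only.

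In its results for perirenal tissue the study names 13 genes, all of them tested here. Of these, 12 were positive, 10 with opposite signs in the 2 depots and 6 with an unadjusted p of at most 0.05 (median 1.08). Further Wnt regulators that its discussion names for this tissue were not in the list. That list was chosen on perirenal DG libraries that also enter this contrast, so its direction is not independent evidence. The 6 were ITGB4, LTBP4, CEBPB, ACAA1, APOE and LRP1, an endocytic receptor of lipoproteins, at 0.79 (SE 0.31). The study took most genes it names for subcutaneous tissue from those significant there for DG against both CN and HY. Most of the 21 such genes tested here were thus picked on the HY and DG difference in libraries of this contrast. Their direction is not independent evidence either, and 6 of the 21 are muscle-enriched. Of these 21, 3 were positive and 5 negative at an unadjusted p of at most 0.05, the positive genes being ANGPTL4, CIDEA and CPT1A, which brings fatty acids into mitochondria, and the negative genes including TGFB2, ARID5B, PRKAB2 and AMOT, a regulator of cell motility, at -1.80 (SE 0.59). AMOT had 319 ± 160 and 100.3 ± 61.4 CPM in subcutaneous DG and HY against 47.2 ± 7.25 and 51.9 ± 6.25 in perirenal DG and HY.

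A stricter form of opposite response asks for a difference in each depot. With an unadjusted p of at most 0.05 in both depots, 157 genes were higher on HY in subcutaneous and lower in perirenal fat (1.23% of genes tested), and 37 were the reverse (0.29%), against 22 genes with the same direction in both depots (0.172%). In all 8 pools, genes with opposite signs thus outnumbered those with equal signs. The first number was 421 without pool DG F1 and 249 without pool HY F2, and 49 to 123 without any of the other 6 pools. In the 5 muscle-rich pools alone 55 and 6 genes were opposite against 65 with the same direction, so the excess of opposite genes was not seen there. The muscle-poor pools include a single DG pool, and no count is compared for them. Complete and opposite separation of the libraries by diet in both depots, which uses no model, was found for 18 genes in the first direction (0.141%) and 39 in the second (0.305%), with 13 separated in the same direction in both (0.102%). Besides RAC3 and HOXB2, the 18 included PFKL, a liver-type phosphofructokinase, TLN1, the integrin adaptor talin, and LMF1, which matures lipoprotein lipase, and the 39 included NMNAT1, DEK, a chromatin protein, MAPK14, the stress kinase p38 alpha, and SRP72, a part of the signal recognition particle. These were picked for naming after their values were seen. Separation does not require a low p for the depot difference. In the F test with the block, the unadjusted p was 0.0527 for MAPK14. For the other genes named here it ran from 2.065e-04 (RAC3) to 0.0195 (HOXB2).

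The 157 and 37 genes differed in features that were not themselves criteria of the choice. The count level, among these features, does affect the p by which the genes were chosen. Its link with locus span was not tested. Of those that lie at 1 locus not shared with another, 99 of the 157 had a median locus span of 15403 bases and 22 of the 37 had 36623 bases, beside 22247 bases over 8563 genes tested. Within 500 kb on either side of their midpoints lay a median of 27 and 10.5 other named loci, beside 12 over all genes. The former group was thus compact and in gene-dense parts of the genome, and 46 of its 99 genes (46.5%) lay on chromosomes 11, 14, 19, 21 and 24, which hold 20.7% of the genes tested, with none on chromosome 1, which holds 9.94%. These chromosomes were picked after the counts were seen. The median of the mean counts per library was 213 for the 157 genes, 599 for the 37 and 287 for all genes. Only 2 of the 157 and 1 of the 37 were muscle-enriched, beside 597 of 12780 overall. Base composition was not analysed here, and its part in this difference was not tested.

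Libraries outside the contrast gave a further view of the same genes. In longissimus dorsi muscle of the same pools, 154 of the 157 genes were tested, and 138 were lower and 16 higher on HY than on DG (median -0.23), beside 6476 lower and 5396 higher of 11872 genes in all (median -0.02). Muscle thus had the sign of perirenal rather than of subcutaneous fat for most of them, although only 2 of the 154 had an unadjusted p of at most 0.05 there. Of the 37 genes, 35 were tested in muscle, with 18 lower and 17 higher. In the 8 fat libraries of the CN diet, the mean depot difference of the 157 genes had a median of -1.10 log2 units, between -1.68 on DG and -0.32 on HY, and it lay between the DG and HY values for 155 of them and for 37 of the 37 in the other direction. Over all genes it did so for 6604 of 12780. Genes picked for a wide gap between DG and HY leave more room between them, so a large count is favored by the choice itself.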

How the data were processed

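Reads had been aligned to Oar_v3.1 with TopHat2 2.0.4 and assembled with Cufflinks 2.1.1, separately for each tissue, per the submitters' processing notes and the methods of the study. What the authors deposited are whole-number counts of reads at each assembled locus, not normalized, with 1 file per library. HTSeq is also listed in those notes, and the counting options, strand included, are not given in the sources used here. Locus numbers differ between tissues, so counts were summed by gene name (22020 names in both depots, 1508 of them with several loci in a depot). Loci without a name were left out.

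Low-count names were dropped by edgeR 4.0.16 (filterByExpr, R 4.3.3; minimum count 10, minimum total 15, grouped by depot and diet), and counts were scaled by TMM. The depot difference of the diet change was tested by edgeR's robust quasi-likelihood F test in the 16 libraries with pool as a block, the 8 pool codes being taken to name the same fetuses in both depots, as the study's list of pools gives them. Diet is nested in pool, so changes within a depot came from a fit of the 4 groups without the block. FDR values follow Benjamini and Hochberg. SEs are the absolute log2 change divided by the square root of F and are approximate. Single genes were also compared by exact two-sided permutation of the 8 pools' depot differences in log2 CPM with a prior count of 2 (70 splits). As a check of the pairing, deviations from the group means were correlated between the 2 libraries of a pool across genes, with values from -0.229 to 0.182, 2 of 8 above 0.1. No 2 libraries of a group were copies, since chi-square divided by its degrees of freedom was 12.5 to 382 over the 24 pairs.

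Genes named are the 8 positive and 8 negative genes of opposite signs that have a symbol, average 50 counts or more and show the lowest p, and up to 4 genes with the lowest p in each list. The members, lists and alternatives were chosen with earlier results of these data known. Scripts were tested on simulated data. Alternatives were other scalings, filters, tests and sets of libraries, the muscle level as a covariate, removal of muscle-enriched names, and each pool left out in turn.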

Additional observations from a re-analysis of the deposited data

Results flagged for a closer look

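In 10 of 218 groups of 4 pools examined, the gap between an extreme value and its nearest neighbour was too large a part of the range by Dixon's criterion, which by its construction marks about 1 in 20 groups by chance. In the DG pools, the subcutaneous minus perirenal difference (log2) of RAC3 was -1.27 in F1 against -1.99 to -1.90 in the others, that of ECI1 was -0.877 in F1 against -2.11 to -2.04, that of HOXD8 was 0.534 in F1 against 1.24 to 1.29, and that of LMNA was 0.883 in F1 against 0.297 to 0.377. That of RARRES2 was -1.79 in DG M2 against -1.04 to -0.908. The mean muscle marker level of subcutaneous fat was 4.60 log2 CPM in DG M1 against 10.2 to 11.1. In the HY pools, ITGB4 was at 0.265 in M1 against 1.21 to 1.36. HY F1 stood apart for CIDEA, at 0.145 against -1.73 to -1.49, for PLIN3, at 0.332 against -1.35 to -1.16, and for RARRES2, at 0.596 against -0.531 to -0.411.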

How the results depend on the processing

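The number of genes at FDR ≤0.05 was 0 with the pool block under another scaling, without a filter, with single-locus names, with a depot by sex term, in the 24 fat libraries of 3 diets, after thinning, with the muscle covariate or with muscle-enriched genes removed, and within the muscle-rich and muscle-poor pools. It was 54 without the replicate block, 190 with the likelihood-ratio test, 197 with DESeq2 and 831 in all 36 libraries, and without the block 163 with muscle-enriched genes removed and 307 with the muscle covariate. The number at FDR ≤0.20, with those of opposite sign in parentheses, was 1 (1) with the block, 2356 (2253) without it, 1282 (1214) with the likelihood-ratio test, 1455 (1386) with DESeq2, 1790 (1717) in 24 and 3131 (2910) in 36 libraries, 1158 (1120) with the muscle covariate, 568 (551) with muscle-enriched genes removed, and 0 (0) with the sex term, after thinning and in the muscle-rich pools. It was 211 (204) in the muscle-poor pools, whose single DG pool is assumed there to vary like the others, and without the block 2472 (2345) with muscle-enriched genes removed and 2898 (2797) with the covariate. Leaving out 1 pool at a time gave 0 to 128 genes at FDR ≤0.05, 0 to 3353 at FDR ≤0.20, of which 0 to 3022 opposite, and 1158 to 3304 at an unadjusted p of at most 0.05. That last number was 3211 in 36 libraries, 1154 in the muscle-rich and 1319 in the muscle-poor pools.

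Genes higher on HY in subcutaneous and lower in perirenal fat at an unadjusted p of at most 0.05 in both numbered 157, 55 in the muscle-rich pools and 49 to 421 without 1 pool. The reverse genes numbered 37, and 21 without a filter, 10 with the likelihood-ratio test, 91 in 24 and 62 in 36 libraries, 65 with the muscle covariate, 6 in the muscle-rich and 18 in the muscle-poor pools, and 6 to 96 without 1 pool. These counts were added after seeing the data, as were the muscle classes. The causes of these shifts were not tested.

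DUSP16, USP47, SOCS2 and CIAO1 have 2 loci in the subcutaneous assembly, so the setting of single-locus names did not include them. None of the 16 leading genes changed sign in those of the 24 settings that included it. Of 107 genes followed, 4 did: PLIN1 (-0.11) and PTGIS (-0.73) in the muscle-poor pools, DLK1 and APOD. DLK1 had -0.15 without pool HY F2 and up to 1.60 without 1 other pool. APOD, at -0.03 with the block, had 1.96 without it, 0.73 in 36 libraries, 0.39 with the covariate, 2.85 in the muscle-rich pools, 1.96 and 1.73 without the block with muscle genes removed or the covariate, and -1.14 to 1.03 without 1 pool, with positive values of 0.31, 0.81, 0.82 and 1.03 without DG M1, DG M2, HY F1 and HY M1. Depth limits genes with a few reads in a depot, such as CEBPB and CFD, and 4 pools a diet limit the rest.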
